A study of Rattus norvegicus with 6 samples.

Results

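The genes described here are those of oxidative phosphorylation, taken from both genomes of the cell. They are the rows of the authors' gene annotation that carry the KEGG pathway named Oxidative phosphorylation, without the vacuolar proton pump (symbols starting Atp6v or Atp6ap, and Tcirg1). Of 179 annotated genes, 23 belonged to that pump, which left 156 of the 24744 genes in the authors' expression table. All 13 protein genes of the mitochondrial genome were already annotated, so none had to be added. The 156 genes comprised 97 subunits of complexes I to V, 40 copies of subunit genes, 4 assembly factors, 9 other enzymes or pumps and 6 genes whose symbols name other proteins. Copies here are further genes that carry a subunit's annotation, some of them pseudogenes or long noncoding RNA genes by RefSeq. Nuclear genes encoded 84 of the subunits: 37 of complex I, 4 of complex II, 9 of complex III, 19 of complex IV and 15 of complex V. The mitochondrial genome encoded 7 subunits of complex I, 1 of complex III, 3 of complex IV and 2 of complex V.

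The libraries were made from the retina of wild-type BN rats (an inbred strain with pigmented eyes) that had received 2 µL into the vitreous. The injection held saline in the control group and DMP at 10 mg/mL in water in the treated group, so DMP and its vehicle cannot be told apart. DMP is named by the submitters as a cationic micelle and is known here only by this code. Each group had 3 libraries, numbered 30, 31 and 33 in both groups. All eyes shared the same anaesthesia, puncture and antibiotic gel. Not given in the sources used here were the age and sex of the rats, the time from injection to collection, and any laser injury. Separate animals are not named in the labels, so the p-values reflect spread between libraries that may be only technical.

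Oxidative phosphorylation couples the oxidation of NADH and succinate to the synthesis of ATP at the inner mitochondrial membrane. Complex I, complex III and complex IV pump protons as electrons pass from NADH through ubiquinone and cytochrome c to oxygen, complex II feeds electrons in from succinate without pumping, and complex V uses the proton gradient to make ATP. Complex II is encoded by the nucleus alone, while the others combine subunits from both genomes. Photoreceptors pack mitochondria into the inner segment and are among the most oxygen-demanding cells of the body.

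The libraries held 47842234 to 53255925 counts each. Rod genes marked the tissue as retina: Gnat1, the rod transducin subunit, measured 13610 ± 518 CPM in saline and 13436 ± 450 CPM in DMP (SD, n = 3), and Sag, rod arrestin, 4534 ± 318 and 4521 ± 78.3 CPM, where CPM is the count scaled to a common library size with TMM factors. On the first principal component (28.1% of the variance) the groups did not overlap. DMP 30, 31 and 33 lay at 52.99, 7.01 and -0.13, and saline 30, 31 and 33 at -23.44, -17.9 and -18.51. Library DMP 30 thus stood apart from the rest, on the DMP side. Of other cell types, the 7 microglial markers had a median log2 fold change of 0.71 (7 of 7 above 0) and the 6 fibroblast markers one of -1.42 (6 of 6 below 0), with 0 called in either list, and their part in the values that follow was not tested. Their summed levels were low beside those of these rod genes: the microglial markers summed to 56.3 to 79.9 CPM in saline and 82.0 to 127 CPM in DMP, and the fibroblast markers to 47.8 to 52.7 CPM in saline and 11.0 to 30.8 CPM in DMP. In bulk tissue, fewer cells of a type and less RNA per cell cannot be told apart.

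No oxidative phosphorylation gene passed the test between DMP and saline. The test was edgeR's quasi-likelihood F-test with Benjamini-Hochberg adjustment at 0.05, and 127 of the 156 genes had enough counts to enter it: 94 subunits, 16 copies, all 4 assembly factors, 7 other enzymes or pumps and all 6 genes named for other proteins. Of the 127, 0 were called higher and 0 lower, against 0.0162% of all 18571 genes tested called higher (3 genes) and 0.00538% called lower (1 gene). At an unadjusted p under 0.05 the count was again 0 of 127, while 4.64% of all genes tested (862 genes) were under that level. DESeq2, limma-voom and limma on FPKM also called 0 of these genes, with 2, 1 and 1 of them at an unadjusted p under 0.05. The lowest unadjusted p among the 127 was 0.0535, for the mitochondrial gene ND4L.

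The intervals show how large a difference the libraries still allow. The 95% interval of the fold change lay within 1.5-fold of no difference, in both directions, for 91 of the 94 subunits tested and within 2-fold for 93 of them. Nuclear subunits lay within 1.5-fold for 78 of 81 and mitochondrial subunits for 13 of 13, beside 12711 of all 18571 genes tested. The subunits were also more often abundant: 77 of the 81 nuclear ones reached 10 CPM, against 10407 of all genes tested. The widest interval among the subunits belonged to Cox6b2, the testis-enriched form of a complex IV subunit, at 0.443-fold to 2.04-fold, where counts were lowest.

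**Figure D1:**
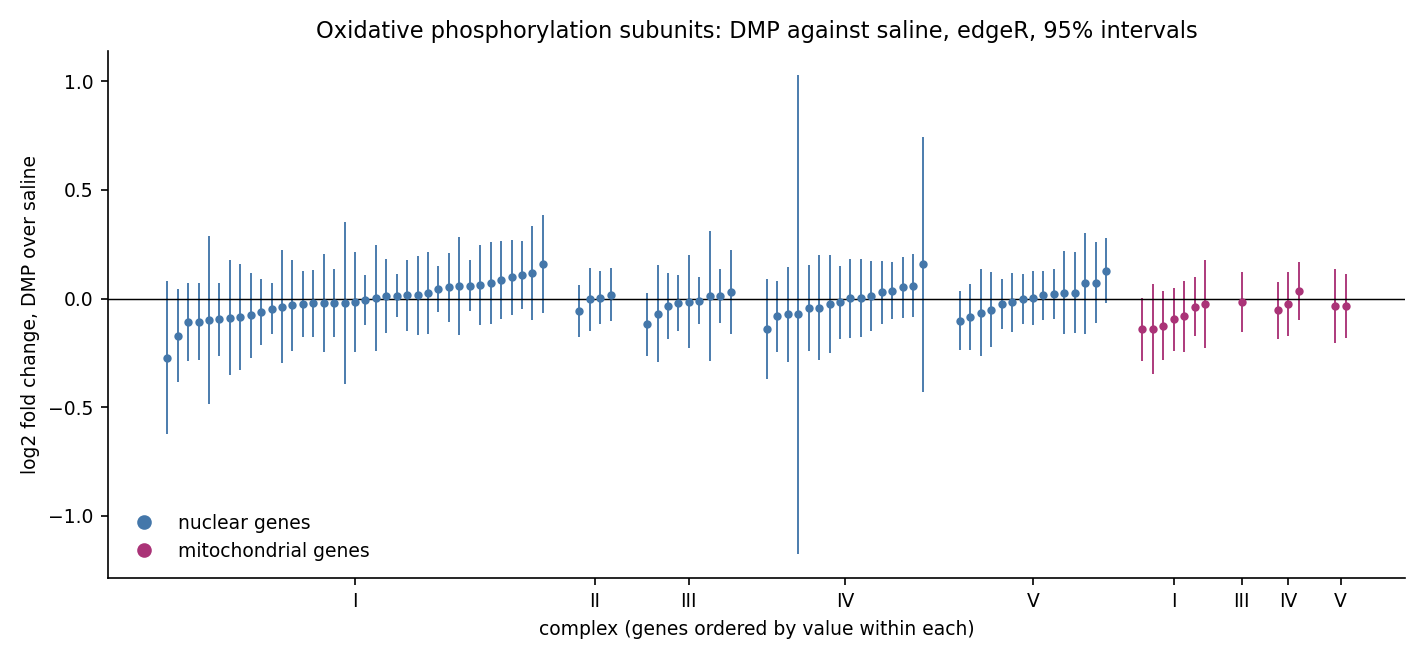
The plot shows the log2 fold change of DMP over saline (vertical axis) for the 94 subunit genes tested, with 95% intervals from edgeR, grouped by complex and by genome. All intervals reach across 0, the 7 mitochondrial complex I genes lie below 0, and the nuclear genes of each complex lie on both sides of it.

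By complex, the nuclear subunits centred near 0. The median log2 fold change was -0.01 for the 37 genes of complex I, 0.00 for the 4 of complex II, -0.01 for the 9 of complex III, -0.01 for the 16 tested of complex IV and 0.00 for the 15 of complex V. The median over all genes tested was 0.00. Of the 81 nuclear subunits tested, 38 had a higher mean in DMP and 43 a lower one.

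The 13 mitochondrial genes centred slightly lower than the nuclear ones. Their median log2 fold change was -0.04, with 12 of 13 below 0 and COX1 above it at 0.03. The 7 complex I genes of this genome were all below 0, with a median of -0.09, whereas the 3 of complex IV had a median of -0.02. These 13 genes are cut from shared precursor transcripts and share a library's depth, so their common sign is not 13 separate observations. With library DMP 33 left out, the median of the 13 was 0.01, with DMP 30 left out -0.10, and with saline 30 or saline 31 left out -0.07. Without saline 33 it was -0.02. Without DMP 30, the library that stood apart on the first principal component, 5 of the 7 complex I genes had an unadjusted p under 0.05 by edgeR: ND4L at 0.00394, ND1 at 0.00833, ND3 at 0.0085, ND4 at 0.0323 and ND5 at 0.044. Their log2 fold changes were then -0.25 to -0.15, and the lowest adjusted p of the 5 was 0.50. The share of all genes under 0.05 in that same fit is not given here, so this count stands without its background.

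In order of position on the plus strand (mRatBN7.2), the transcripts of smallest p among the 13 in the main fit were ND3, ND4L, ND4 and ND5. They encode membrane-embedded subunits of complex I, the NADH dehydrogenase. ND4L, at positions 9870 to 10166 of the mitochondrial genome, measured 1046, 1050 and 1113 CPM in saline and 1060, 956 and 891 CPM in DMP (libraries 30, 31 and 33 in each group). DMP 31 and DMP 33 lay below every saline library and DMP 30 lay among them, so the groups overlapped. The edgeR log2 fold change was -0.14 ± 0.07 (SE, n = 3 per group), with a 95% interval of -0.29 to 0.00 and an adjusted p of 1.00. With DMP 33 left out the value was -0.09. ND4L shares 7 bases with ND4 at its end, so reads across that border could have been given to either.

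ND5, at positions 11736 to 13565, encodes the largest complex I subunit of this genome. It measured 2810, 2825 and 3198 CPM in saline and 2861, 2790 and 2455 CPM in DMP. Saline 33 was the highest library and DMP 33 the lowest, with the other 4 close together and the groups overlapping. Its log2 fold change was -0.12 ± 0.07 (SE, n = 3 per group), and it was -0.06 without saline 33 and likewise without DMP 33. ND5 overlaps ND6, which is read from the opposite strand, over 23 bases.

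ND3, at positions 9451 to 9798 and the least abundant of the 13, measured 195, 229 and 201 CPM in saline and 218, 186 and 164 CPM in DMP, with the groups overlapping. ND4, at positions 10160 to 11537, measured 3916, 4174 and 4375 CPM in saline and 4181, 3887 and 3605 CPM in DMP. In both genes DMP 33 was the lowest library and DMP 30 lay within the saline range. The log2 fold changes were -0.14 ± 0.09 for ND3 and -0.09 ± 0.07 for ND4 (SE, n = 3 per group). Without DMP 33 both were -0.05, ND3 was -0.07 without saline 31, and ND4 was -0.06 without saline 33.

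COX1, the catalytic subunit of complex IV that holds the site of oxygen reduction, lies at positions 5323 to 6867. It measured 16692, 17121 and 18623 CPM in saline and 17517, 19021 and 17184 CPM in DMP. DMP 31 was highest and saline 30 lowest, and the log2 fold change was 0.03 ± 0.06 (SE, n = 3 per group). CYTB, the complex III subunit that carries both ubiquinone sites, measured 6241, 5663 and 5841 CPM in saline and 6241, 5891 and 5422 CPM in DMP. ATP6, the complex V subunit that forms the proton path with the rotating ring, measured 4973, 5292 and 5429 CPM in saline and 5461, 5240 and 4637 CPM in DMP.

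Of the remaining mitochondrial genes, ND1, ND2, ND6, COX2, COX3 and ATP8 had log2 fold changes from -0.08 to -0.02, and the groups overlapped for each. ND1 measured 3712, 3645 and 3566 CPM in saline and 3874, 3355 and 3091 CPM in DMP. DMP 31 and DMP 33 thus lay below every saline library for ND1 and DMP 30 above them. DMP 33 was the lowest library for 12 of the 13 genes, the exception being COX1. Saline 33 was the highest for 6 of them and DMP 30 for 4.

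**Figure D2:**
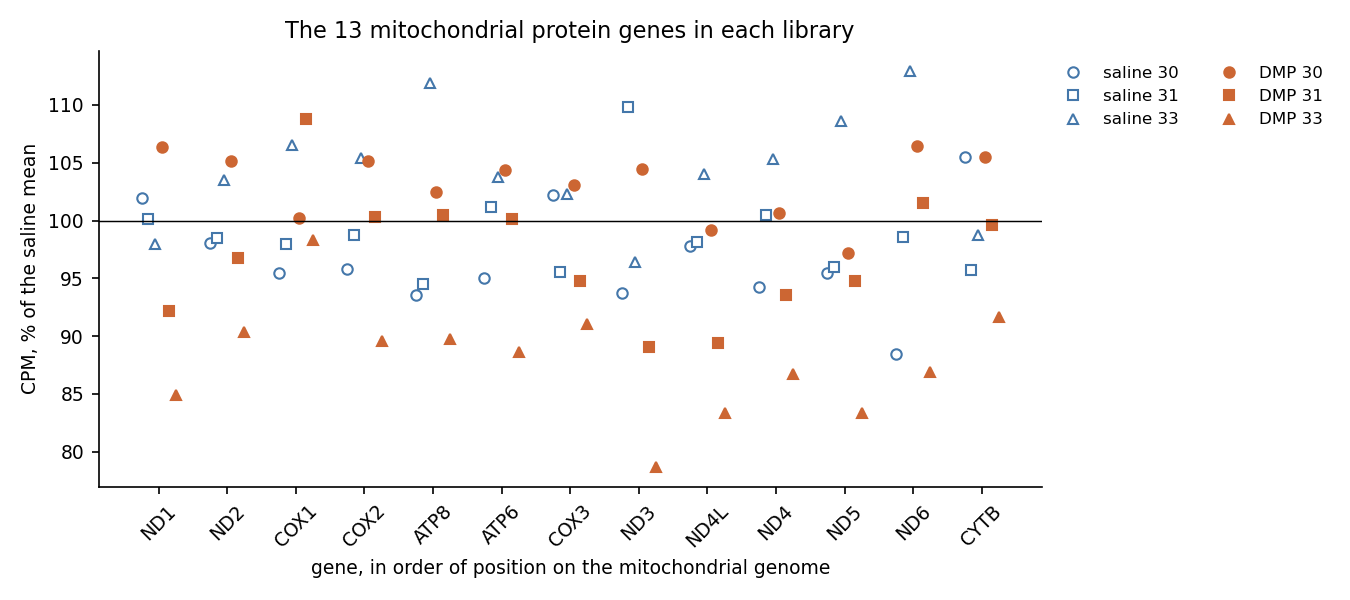
The plot shows the CPM of each of the 13 mitochondrial protein genes as a percent of its saline mean (vertical axis), in order of position on the genome, with open symbols for the 3 saline and filled symbols for the 3 DMP libraries. DMP 33 (filled triangles) is lowest for 12 genes, and DMP 30 (filled circles) lies above the saline mean for most.

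As a whole, the mitochondrial protein genes made up 5.56%, 5.64% and 5.96% of all counts in saline and 5.84%, 5.71% and 5.25% in DMP. The groups overlapped, with means of 5.72% ± 0.21 and 5.60% ± 0.31 (SD, n = 3). The 84 nuclear subunits together made up 0.540%, 0.578% and 0.513% in saline and 0.541%, 0.547% and 0.529% in DMP, a range in DMP that lay within that of saline. The 13 mitochondrial genes thus drew about 10 times the counts of the 84 nuclear ones: the ratio was 10.3, 9.76 and 11.6 in saline and 10.8, 10.4 and 9.92 in DMP. The lowest and highest ratios of all 6 libraries were both saline libraries.

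**Figure D3:**
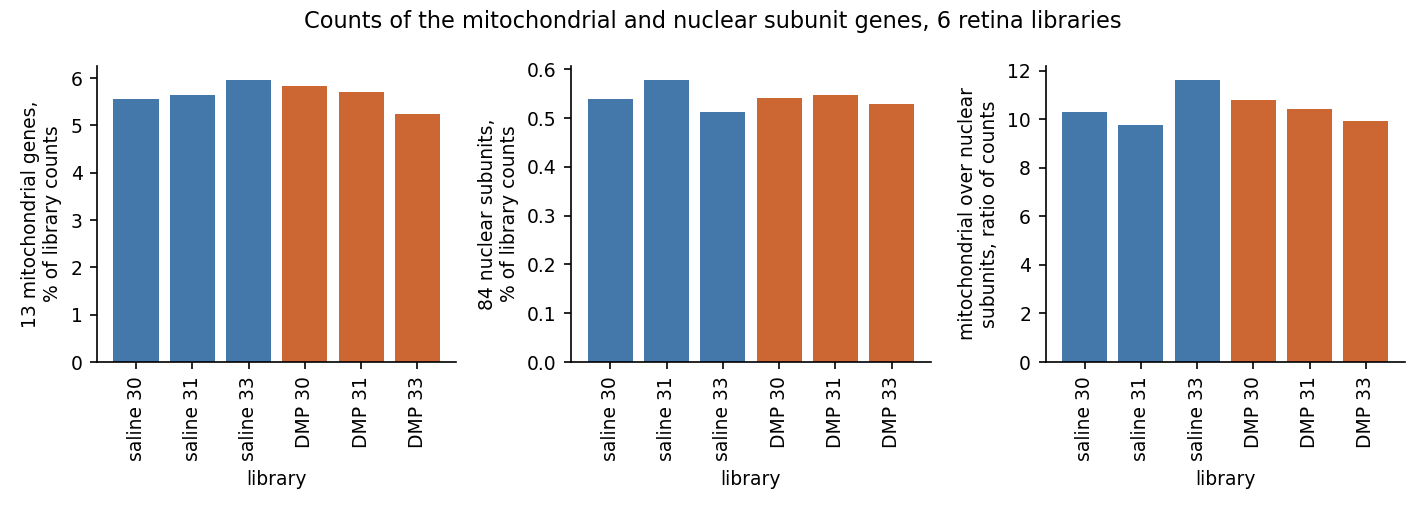
The bars show, for each of the 6 libraries, the percent of counts from the 13 mitochondrial genes, the percent from the 84 nuclear subunits, and the ratio of these counts. In the ratio the 3 DMP libraries lie between saline 31 at 9.76 and saline 33 at 11.6.

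Other RNA of the mitochondrial genome also overlapped between the groups. This held for the share of counts of the ribosomal RNA genes mt-Rnr1 and mt-Rnr2 and of the 22 transfer RNA genes. The log2 fold changes were 0.13 ± 0.07 for mt-Rnr1 and 0.02 ± 0.08 for mt-Rnr2 (SE, n = 3 per group). Both were above 0, whereas 12 of the 13 protein genes were below it. The cytosolic ribosomal RNA gene Rn18s differed in level: it took 0.0121%, 0.0216% and 0.0338% of counts in saline and 0.0439%, 0.118% and 0.159% in DMP. All DMP libraries were above all saline libraries for Rn18s, with an edgeR log2 fold change of 2.25 ± 0.43 (SE, n = 3 per group) and an adjusted p of 0.12. The RNA had been selected with oligo(dT), and the part of Rn18s in the values of the mitochondrial genes was not tested.

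Within the mitochondrial counts, COX1 took 30.6% ± 0.63 in saline and 32.0% ± 1.78 in DMP (SD, n = 3), with the groups overlapping. ND4L took 1.88%, 1.87% and 1.87% in saline and 1.81%, 1.66% and 1.70% in DMP, where all DMP libraries were below all saline libraries. ND5 was the other gene whose shares did not overlap, at 5.04%, 5.04% and 5.36% in saline and 4.88%, 4.86% and 4.69% in DMP. The shares of the other 11 overlapped. All these shares are parts of a fixed total, so they are tied to one another. In CPM, 4.42% of all genes tested had every DMP library above every saline one and 4.88% every one below. With 3 libraries per group an exact permutation test cannot go below 0.10, and none was applied to these shares.

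Levels per length set the mitochondrial genes far above the nuclear ones. On the authors' FPKM scale (fragments per kilobase of transcript, scaled to depth), the median of the 13 mitochondrial genes was 1445 and that of the 84 nuclear subunits 37.9, against 1.67 for all genes of the table. COX1, at 4317 FPKM, was the gene of rank 5 in the retina. By complex, the nuclear medians were 85.8 FPKM for complex V, 50.7 for complex IV, 36.9 for complex I, 31.5 for complex II and 16.6 for complex III. The ranges of the complexes overlapped.

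**Figure D4:**
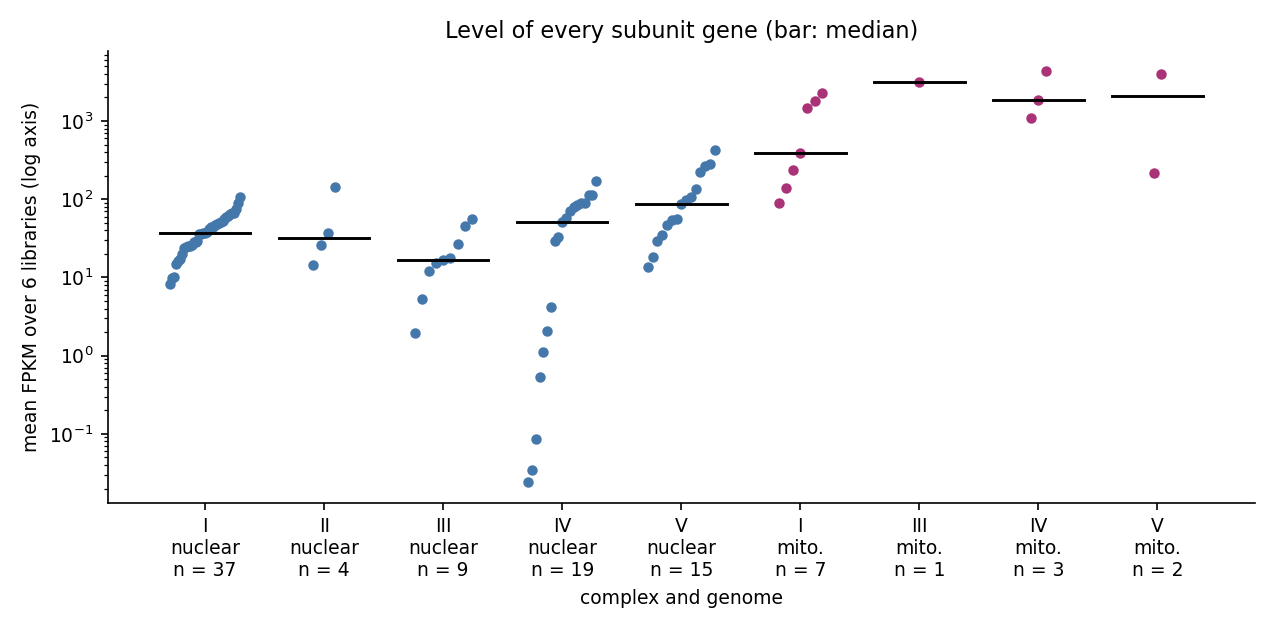
The plot shows the mean FPKM over 6 libraries (log axis) of each subunit gene, by complex and genome, with a bar at the median. The mitochondrial genes lie between 88.6 and 4317 FPKM and 80 of the 84 nuclear subunits between 1 and 428 FPKM, with a low tail in complex IV made of restricted isoforms.

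The FPKM values of the mitochondrial genes did not follow from their counts and lengths. These genes have no introns, so counts per kilobase can be taken from their annotated length. On that scale COX1 again came first, at 11452 CPM per kilobase, but ATP8 came second at 8834 while it was at rank 11 of the 13 in FPKM. The ratio of FPKM to CPM per kilobase ran from 0.024 for ATP8 through 0.065 for ND1 to 0.937 for ND5. Among the nuclear subunits, the ratio of CPM to FPKM is the length in kilobases that the FPKM implies. It ran from 0.319 for Atp5mg to 11.4 for Uqcr11, with a median of 0.942. For Uqcr11 the implied length exceeded the whole annotated span of the gene, 4712 bases. FPKM and counts were thus at odds for this nuclear gene too. The order of levels between genes therefore differed between the scales. The lengths the authors used are not known, and the origin of the mismatch was not tested. The edgeR comparison of groups used counts and no lengths.

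Within complex I, the accessory subunit Ndufb8 had the highest level of the nuclear genes, at 109 ± 9.64 FPKM in saline and 107 ± 3.69 in DMP (SD, n = 3). The lowest log2 fold change was that of Ndufa3, a small membrane-arm subunit, which measured 7.87, 9.95 and 7.09 CPM in saline and 8.04, 6.17 and 6.41 CPM in DMP. Its value was -0.27 ± 0.16 (SE, n = 3 per group), with a 95% interval of -0.63 to 0.08 and groups that overlapped through DMP 30. It was -0.40 without DMP 30 and -0.13 without saline 31. Ndufc1, another small accessory subunit, had the highest value, with 10.4, 11.4 and 10.0 CPM in saline and 11.9, 12.3 and 11.3 CPM in DMP. The lowest DMP library lay just under the highest saline library, and the log2 fold change was 0.16 ± 0.10 (SE, n = 3 per group).

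Ndufa11, an accessory subunit of the membrane arm, measured 26.0, 27.1 and 21.3 CPM in saline and 23.2, 21.1 and 21.7 CPM in DMP. Saline 33 lay with the DMP libraries and the other saline libraries above them. The log2 fold change was -0.17 ± 0.10 (SE, n = 3 per group). With saline 33 left out it was -0.27, with an unadjusted p of 0.00855 and an adjusted p of 0.45 by edgeR, and with saline 31 left out it was -0.10.

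Complex II, succinate dehydrogenase, varied least among the complexes, with a median SD within groups of 0.07 on the log2 scale. Sdha, its flavoprotein, measured 241, 223 and 209 CPM in saline and 218, 216 and 214 CPM in DMP, the DMP range lying within that of saline. Sdhc, a membrane anchor, measured 80.2, 79.1 and 80.9 CPM in saline and 75.7, 86.4 and 81.3 CPM in DMP, here with the saline range inside that of DMP. The log2 fold changes were -0.06 ± 0.06 for Sdha and 0.02 ± 0.06 for Sdhc (SE, n = 3 per group).

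In complex III, Uqcrc1, a core protein on the matrix side, measured 126, 136 and 113 CPM in saline and 118, 117 and 110 CPM in DMP. Saline 33 again lay among the DMP libraries, and the log2 fold change was -0.12 ± 0.07 (SE, n = 3 per group). Without saline 33 it was -0.19, with an unadjusted p of 0.00555 and an adjusted p of 0.43 by edgeR, and without saline 31 it was -0.05. Uqcrfs1, the Rieske iron-sulfur protein and the nuclear subunit of highest FPKM in this complex, measured 82.0, 79.3 and 71.1 CPM in saline and 75.5, 77.3 and 76.4 CPM in DMP. Its DMP libraries lay within the saline range. Uqcrb, a ubiquinone-binding subunit, had the highest log2 fold change of the complex at 0.03 ± 0.09.

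Complex IV is the complex with the most alternative subunits, and the common forms predominated in the retina. Cox4i2, the lung-enriched and oxygen-responsive form of subunit 4, made up 3.99% ± 0.11 of the summed FPKM of Cox4i1 and Cox4i2 in saline and 3.83% ± 0.27 in DMP (SD, n = 3). The heart and muscle form Cox7a1 (listed as LOC687508, the same RefSeq gene) made up 3.54% ± 0.49 and 3.51% ± 0.15 beside Cox7a2. Ndufa4l2, the hypoxia-induced relative of the complex IV subunit Ndufa4, made up 0.614% ± 0.14 and 0.673% ± 0.07. All of these shares overlapped between the groups. They hold for the FPKM scale, and counts alone gave the restricted forms more weight. In saline CPM, the mean of Cox4i2 was 15.3 beside 153 for Cox4i1, and that of Cox7a1 16.7 beside 56.8 for Cox7a2. Cox4i2 had the lowest log2 fold change of the nuclear complex IV genes at 1 CPM or more, -0.14 ± 0.10, and Ndufa4l2 the highest, 0.16 ± 0.27 (SE, n = 3 per group). Ndufa4l2 measured 0.984, 1.83 and 1.37 CPM in saline and 1.66, 1.52 and 1.48 CPM in DMP, and its value was 0.40 without saline 31 and -0.04 without saline 30. That of Cox4i2 was -0.08 without saline 31 and -0.07 without DMP 33.

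The remaining restricted forms were at or near 0. Cox6a2, the heart and muscle form of subunit 6a, had counts in DMP 31 alone, Cox8b in DMP 30 and DMP 31 alone, and the testis form Cox7b2 in saline 30 alone. These 3 genes, the subunits not tested, reached at most 0.147 CPM in any library. Cox6b2 lay between 0.242 and 0.420 CPM. Skeletal muscle markers were likewise low, with a sum of 17.0 to 25.4 CPM in saline and 21.7 to 24.0 CPM in DMP. Ndufa4 itself was the nuclear complex IV gene of highest FPKM, at 173. It measured 133, 159 and 148 CPM in saline and 146, 162 and 150 CPM in DMP. In saline CPM, Cox4i1 had the higher mean of these 2, at 153 against 147.

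In complex V, Atp5f1b, the catalytic beta subunit, was the nuclear gene of highest FPKM of all 84, at 425 ± 17.8 in saline and 431 ± 12.6 in DMP (SD, n = 3). Atp5pf, coupling factor 6 of the peripheral stalk, was the one gene of the 127 whose libraries did not overlap. It measured 36.8, 40.3 and 38.3 CPM in saline and 40.7, 44.5 and 40.9 CPM in DMP, so that the lowest DMP library lay just above the highest saline one. The log2 fold change was 0.13 ± 0.07 (SE, n = 3 per group), with an unadjusted p of 0.0833 and an adjusted p of 1.00 by edgeR. Without DMP 31 the value was 0.09. Of all genes tested, 4.42% had every DMP library above every saline library and 4.88% had every one below, while among these 127 genes the counts were 1 and 0. Atp5pf overlaps Gabpa, the DNA-binding subunit of an ETS-family factor, on the opposite strand, and no source used here says whether the authors' counting used strand. Gabpa had a log2 fold change of 0.16 ± 0.09 (SE, n = 3 per group) with groups that overlapped.

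Atp5f1c, the gamma subunit of the central stalk, had the lowest value of complex V, with 96.5, 100.4 and 96.7 CPM in saline and 88.8, 99.98 and 85.0 CPM in DMP. DMP 31 lay among the saline libraries, and the log2 fold change was -0.10 ± 0.06 (SE, n = 3 per group). Without DMP 31 it was -0.17, with an unadjusted p of 0.0114 and an adjusted p of 0.79 by edgeR, and without DMP 33 it was -0.06. Subunit c of the rotating ring is made from 3 genes that encode the same mature protein. Atp5mc1 made up 38.3% ± 1.66 of the FPKM of Atp5mc1 and Atp5mc3 in saline and 39.6% ± 1.36 in DMP, and Atp5mc2 made up 61.5% ± 1.04 and 61.3% ± 0.23 of that of Atp5mc2 and Atp5mc3 (SD, n = 3). Both shares overlapped between the groups. They too hold for the FPKM scale: in saline CPM, the means were 31.3 for Atp5mc1, 73.3 for Atp5mc2 and 79.2 for Atp5mc3.

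For the nuclear subunits, the saline libraries lay further apart than the DMP ones. Saline 31 was the highest library for 49 of the 81 tested and saline 33 the lowest for 44 of them. The median log2 ratio to the saline mean over these genes was 0.00, 0.10 and -0.11 for saline 30, 31 and 33 and 0.00, 0.01 and -0.04 for DMP 30, 31 and 33. Within each of complexes I to V, saline 31 had the highest median and saline 33 the lowest. Without saline 31 the median log2 fold change of the nuclear subunits was 0.04, and without saline 33 it was -0.06. Nuclear subunits of at least 10 CPM had a median SD within groups of 0.105 on the log2 scale (77 genes), against 0.0842 for all genes tested at that level.

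The 40 gene copies were mostly silent. Their median was 0.110 FPKM, 9 of them reached 1 FPKM, and 16 were tested. The most abundant, LOC102546431 at 28.0 FPKM, is a long noncoding RNA gene by RefSeq that carries the annotation of Atp5f1c. It overlaps Atp5f1c and Taf3, both on the opposite strand, over part of its length, so reads there may be shared with them. LOC691675, a copy that overlaps Eif3j, had the smallest unadjusted p of this group, with 1.83, 3.13 and 2.52 CPM in saline and 3.04, 3.43 and 3.16 CPM in DMP and a log2 fold change of 0.36 ± 0.21 (SE, n = 3 per group). Without saline 30 it was 0.18 and without saline 31 it was 0.56. On the log2(FPKM + 1) scale, which understates changes of low genes, its value was 0.07. By RefSeq gene ID the row named Ndufs6 is a pseudogene, Ndufs6-ps1, at 1.95 FPKM, while the iron-sulfur subunit Ndufs6 is listed as LOC679739, at 52.5 FPKM. Reads of near-identical copies could have been divided between such rows.

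The other genes carrying the pathway annotation included the complex IV assembly factors Cox10, Cox11, Cox15 and Cox17, with log2 fold changes from -0.03 to 0.16. The pyrophosphatases Ppa1 and Ppa2, which clear pyrophosphate in cytosol and mitochondria, had values of -0.06 and -0.05. Of the genes named for other proteins, Serac1, a lipid-remodelling protein of mitochondria, measured 29.8, 27.4 and 32.8 CPM in saline and 26.7, 27.3 and 27.8 CPM in DMP. Dnttip2, a nucleolar protein, measured 51.5, 48.2 and 54.8 CPM in saline and 51.7, 61.1 and 55.3 CPM in DMP. Both overlapped between the groups.

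Genes that build or regulate the complexes but lack the annotation gave 0 calls in each of 8 lists. Of 19 tested complex I assembly factors, 10 had a higher mean in DMP and 9 a lower one, with a median log2 fold change of 0.01. Ndufaf6, one of them, measured 3.72 ± 0.22 CPM in saline and 5.17 ± 0.72 in DMP (SD, n = 3), with every DMP library above every saline one, a log2 fold change of 0.48 ± 0.16 (SE) and an adjusted p of 0.67 by edgeR. Ecsit, another, had a value of -0.12, with every DMP library below every saline one. Of all genes tested, 4.42% lay wholly above and 4.88% wholly below in this way.

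Of 20 tested assembly factors of complex IV, 14 had a higher mean in DMP, with a median of 0.06. Coa5, one of them, measured 88.7 ± 3.65 CPM in saline and 97.0 ± 3.58 in DMP (SD, n = 3), a log2 fold change of 0.13 ± 0.05 (SE) with an adjusted p of 0.91 by edgeR, and Sco1, which delivers copper, had a value of 0.17. The 11 assembly factors of complexes II and III had a median of -0.01, with Ttc19 at 0.12 and Sdhaf4 at 0.21, and the 5 of complex V with its inhibitor one of -0.04, with Atpaf2 at -0.06 and the inhibitor Atp5if1 at -0.04.

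Of 28 genes for copying and transcribing the mitochondrial genome and for processing, stabilising or degrading its RNA, 14 had a higher mean in DMP and 14 a lower one, with a median of 0.01. Slirp, which stabilises mitochondrial messenger RNA, measured 7.58 ± 0.48 CPM in saline and 9.03 ± 0.33 in DMP (SD, n = 3), a log2 fold change of 0.25 ± 0.11 (SE) with an adjusted p of 1.00 by edgeR. Tfam, which packs and transcribes mitochondrial DNA, measured 15.7 ± 1.52 CPM and 17.8 ± 0.61 CPM. For both genes, as for Coa5 and for 4.42% of all genes tested, every DMP library was above every saline library.

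The 12 nuclear regulators, among them Nrf1, the GABP subunits, Ppargc1a and the oestrogen-related receptors, had a median of 0.01. Gabpa and Ppargc1b had the smallest p of this list, the latter with a log2 fold change of -0.12. Nrf1 itself measured 54.2 ± 0.24 CPM in saline and 54.3 ± 1.58 in DMP (SD, n = 3). The 13 genes of coenzyme Q synthesis had a median of 0.01, with 8 above 0 and 5 below. Coq8a and Coq7 had the smallest p of this list. Coq8a measured 22.4 ± 1.32 CPM in saline and 19.5 ± 0.26 in DMP (SD, n = 3). Its log2 fold change was -0.20, with an adjusted p of 0.89 by edgeR. Every DMP library was below every saline one for Coq8a, as for 4.88% of all genes tested. For Coq8b and Pdss1 every DMP library was above, as for 4.42% of all genes tested. Coq7, a hydroxylase, had a log2 fold change of -0.25. The 9 carriers and uncouplers tested of 12 had a median of 0.00, with Vdac3 at 0.10 and Slc25a14 at 0.07, and Ucp1 and Ucp3 were at 0 in all libraries.

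The promoters of the nuclear subunits share sequence features that the pathway annotation did not use. Windows from 250 bases before to 50 after the start were taken from RefSeq (GRCr8) and matched 74 of the 84 nuclear subunits. They were searched on both strands for the core motifs of NRF-1 (CGCANGCG), of the ETS factor GABP (CCGGAAG) and of YY1 (AANATGGCG), which are factors known to act on respiratory genes. At least 1 of the 3 was found in 47 of 74 windows (63.5%), against 17.9% of all 27457 windows and 21.9% of the 19005 of protein-coding genes. Median GC content was 56.2% in the subunit windows and 55.3% in those of protein-coding genes.

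By motif, the NRF-1 core was found in 32.4% of subunit windows (exact 95% interval 22.0% to 44.3%) and 10.5% of protein-coding ones. The GABP core was found in 27.0% (17.4% to 38.6%) and 11.2%, and YY1 in 24.3% (15.1% to 35.7%) and 4.00%. The receptor motif ERR (CAAGGTCA) was in 5.41% (4 of 74, 1.49% to 13.3%) and 1.22%, and the photoreceptor motif CRX/OTX (TAATCC) in 9.46% (3.89% to 18.5%) and 6.56%. The YY1 motif holds ATGGCG, letters also found around a start codon. With the search restricted to the 200 bases before the start, its share of subunit windows was 4.05% (0.84% to 11.4%). In that setting it was in 1.4% of protein-coding windows and 1.23% of all windows. A match describes letters in a window and not a site in use.

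**Figure D5:**
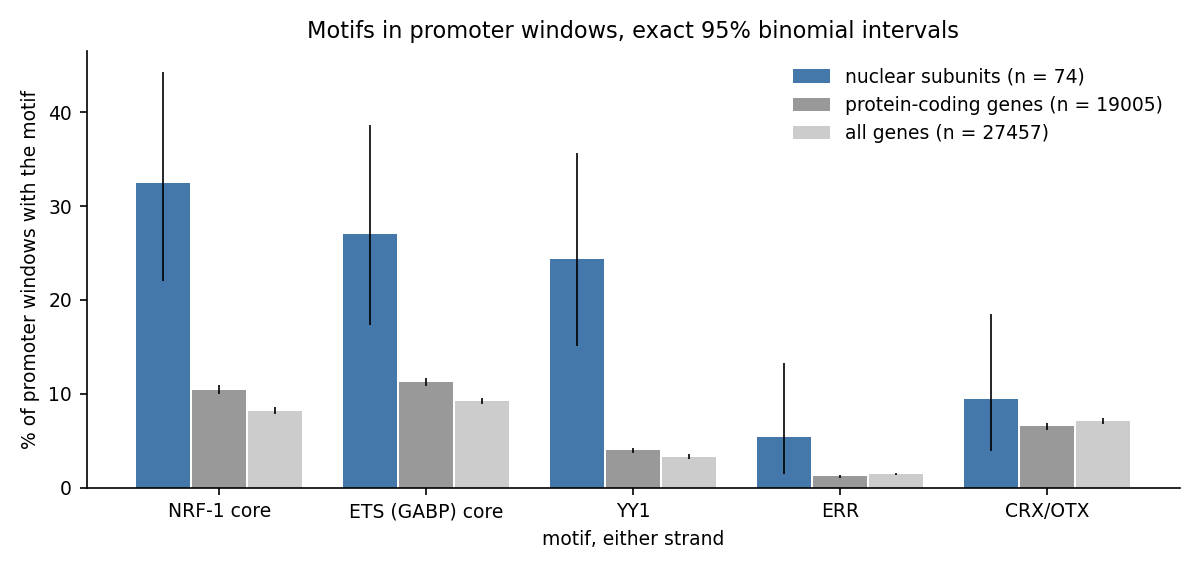
The bars show the percent of promoter windows that hold each motif on either strand, for the 74 nuclear subunits matched, for protein-coding genes and for all genes, with exact 95% binomial intervals that cover counting error only. The subunit bars for the NRF-1, GABP and YY1 motifs lie at 24.3% to 32.4%, and those of the comparison sets at 11.2% or less.

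The sequences shown are the 150 bases before the start, 5′ to 3′ on the gene's strand, of the subunit of highest FPKM in each complex whose stretch holds at least 1 of the 3 motifs, so that the motifs can be seen in place. They were chosen for holding one. The genes of highest FPKM in complexes I, III, IV and V (Ndufb8, Uqcrfs1, Ndufa4 and Atp5f1b) have none of the 3 in these 150 bases. Capitals mark the NRF-1 core, or CTTCCGG, the GABP core read on the other strand.
Ndufb4, accessory subunit of complex I, chr11:76569028-76569177, plus strand: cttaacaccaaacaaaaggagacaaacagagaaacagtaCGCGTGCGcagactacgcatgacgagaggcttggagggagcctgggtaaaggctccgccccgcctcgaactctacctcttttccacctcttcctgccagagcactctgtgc
Sdha, flavoprotein of complex II, chr1:30764403-30764552, plus strand: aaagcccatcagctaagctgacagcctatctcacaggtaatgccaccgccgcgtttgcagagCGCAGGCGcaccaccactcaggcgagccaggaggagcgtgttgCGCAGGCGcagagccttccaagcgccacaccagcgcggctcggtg
Uqcrc2, core protein of complex III, chr1:184599090-184599239, plus strand: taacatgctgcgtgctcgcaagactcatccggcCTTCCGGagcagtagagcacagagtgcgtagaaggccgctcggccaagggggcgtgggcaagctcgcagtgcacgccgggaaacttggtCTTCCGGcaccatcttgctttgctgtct
Cox7a2, subunit 7a of complex IV, chr8:89601150-89601299, minus strand: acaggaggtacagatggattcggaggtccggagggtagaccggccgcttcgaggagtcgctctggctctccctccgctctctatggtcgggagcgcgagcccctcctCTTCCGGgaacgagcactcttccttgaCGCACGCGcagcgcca
Atp5mc2, ring subunit c of complex V, chr7:135678219-135678368, minus strand: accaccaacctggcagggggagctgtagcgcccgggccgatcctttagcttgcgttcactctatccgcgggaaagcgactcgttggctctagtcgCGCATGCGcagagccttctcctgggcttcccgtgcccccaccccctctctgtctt

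Counted from -1 at the base before the start, the NRF-1 cores of Sdha lie at -88 to -81 and -45 to -38, and those of Ndufb4, Cox7a2 and Atp5mc2 at -111 to -104, -16 to -9 and -55 to -48. The GABP cores of Uqcrc2 lie at -117 to -111 and -28 to -22, and that of Cox7a2 at -43 to -37. Beside these sequences, the genes had log2 fold changes of 0.01 for Ndufb4, -0.06 for Sdha, -0.01 for Uqcrc2, 0.00 for Cox7a2 and -0.02 for Atp5mc2.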

How the data were processed

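RNA of 6 retina libraries, 3 per group, was used. Per the submitters' processing notes, reads were trimmed with cutadapt 1.9 and checked with FastQC, and the build was mRatBN7.2. The aligner and counter were not given in the sources used here. The authors' deposited count table held 34335 genes, read here as estimated counts that were already whole, since in each library 673 to 741 genes stood at 4 against 301 to 325 at 3. The authors' deposited FPKM table held 24744 genes and repeated the same counts. edgeR 4.0.16 in R 4.3.3 was fitted to all 6 libraries with its default filter (minimum count 10, total 15), TMM scaling and group as the only term, which left 18571 genes. P-values were adjusted by Benjamini-Hochberg over these. Alternatives were DESeq2 1.42.0, limma 3.58.1 (voom, and log2(FPKM + 1)), other scalings and filters, a replicate block, and each library left out. The fit was tested on simulated data. Members and lists were chosen with earlier results of these data known. Named in full were any called genes, the 13 mitochondrial genes, the 12 of smallest p at 1 CPM or more, the most abundant and the highest and lowest fold change per complex, and isoform pairs. Coordinates of genes are those of the authors' table, and promoters come from RefSeq on GRCr8. Of the listed symbols, Coa1, Uqcc6, Sco2, Pet117 and Usmg5 were not matched. Further markers (cone, bipolar, Müller, ganglion, pericyte, pigment epithelium, lens and red cell) gave 0 calls each, and lens genes had a median log2 fold change of -0.59.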

Additional observations from a re-analysis of the deposited data

How the results depend on the processing

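In the main fit 4 genes of all tested were called, a number that moved with the method: 90 by DESeq2, 0 by limma on log2(FPKM + 1), 13 with a stricter filter of 1 CPM in 3 libraries and 45 with the replicate block. Leaving out each library gave 0 to 81 calls, the lowest without DMP 31 and the highest without DMP 33. The number of oxidative phosphorylation genes called was 0 under all 15 alternatives. At an unadjusted p under 0.05 there were 0 to 12 of them, with 12 without saline 33, 7 without DMP 30 (5 of them mitochondrial complex I genes) and 1, Uqcrc1 at 0.0481, with the replicate block. The shares of all genes under that level in these alternatives are not given here. The 4.64% stated for all genes holds for the main fit only. Whether the replicate numbers pair the samples was not settled. Correlations of same-numbered libraries were 0.07, 0.04 and 0.03, and those of differently numbered ones ran from -0.08 to 0.05. Saline 30 and saline 31 each correlated best with the DMP library of the same number, and saline 33 with DMP 31. The medians by complex and genome moved by less than the spread between libraries in all 105 alternative values, and that of the 13 mitochondrial genes ran from -0.10 to 0.01. The difference in mitochondrial share of counts, -0.12 percentage points, ran from -0.24 to 0.05 when each library was left out and was -0.19 on FPKM. Of 629 alternative values of single named genes, 48 had another sign and 4 moved by more than the spread, those of LOC691675, Ndufa4l2 and Cox6b2. The given strand alone held the GABP core in 10.8% of subunit windows and 6.35% of protein-coding ones, and ERR in 0 of 74 (exact upper bound 4.86%). The 200 bases before the start held ERR in 1.35% of subunit windows and 0.72% of protein-coding ones.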
